A study of Caenorhabditis elegans with 2 samples.

Results

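The X chromosome of Caenorhabditis elegans held 1028 of the 6850 peaks of the transcription factor LSY-2 in the authors' thresholded list, or 15.0%. X peaks were chosen by the chromosome given in that list, in the ce11 genome build, so that signal, position on the chromosome and neighbouring genes played no part in the choice. The peaks came from chromatin immunoprecipitation and sequencing of whole L1 larvae that had been starved after bleaching. Every animal was of strain OP367, whose genotype is unc-119(tm4063) III; wgIs367, and expressed LSY-2 fused to eGFP from the wgIs367 insertion. There were 2 biological replicates, both with the sexes pooled, and no second genotype, treatment or time, so that the comparisons are between X and the 5 autosomes. Signal means the authors' enrichment value for a region, and the sources used here give neither its scale nor the read depth behind it.

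LSY-2 is a nuclear protein with C2H2 zinc fingers, known for its part in setting the left and right fates of the ASE taste neurons. The X chromosome of this worm differs from the autosomes in several ways known from earlier work. Hermaphrodites have a pair of X chromosomes and males a single one, and a condensin-based dosage compensation complex binds both X chromosomes of hermaphrodites to lower their transcription. The complex is first recruited at a set of X sites that carry copies of a short GC-rich motif, the MEX motif, and then spreads along the chromosome. X is poor in essential and germline genes, and rich in genes of neurons and muscle.

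The sequences around X summits are given first, because 10 of the 30 strongest peaks away from gene starts held the core of the recruitment motif. Several of the strongest promoter peaks, though not the strongest of all, held other words. Each line shows the plus strand of ce11, from RefSeq, with 75 bp on each side of a summit. The 8 shown are the strongest of those 10 peaks, and those near T27A8.7, with a signal of 752, and in pks-1, with 664, are not printed. In each line, capitals mark the MEX core, CGCAGGG or its reverse complement CCCTGCG. The name is that of the gene with the nearest 5′ end or, for a summit within a gene, of that gene.
Y41G9A.17 (chrX:2997078-2997228): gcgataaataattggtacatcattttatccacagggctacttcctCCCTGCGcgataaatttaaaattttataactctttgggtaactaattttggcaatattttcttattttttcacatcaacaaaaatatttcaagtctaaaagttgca
W02H3.3 (chrX:11094101-11094251): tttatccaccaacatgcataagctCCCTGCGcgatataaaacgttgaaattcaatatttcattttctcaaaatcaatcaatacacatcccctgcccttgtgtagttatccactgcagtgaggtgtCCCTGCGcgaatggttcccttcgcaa
xol-1 (chrX:8036365-8036515): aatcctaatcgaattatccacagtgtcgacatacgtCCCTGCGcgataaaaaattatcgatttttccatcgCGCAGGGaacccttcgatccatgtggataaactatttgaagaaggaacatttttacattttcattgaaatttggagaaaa
F22H10.2 (chrX:16682040-16682190): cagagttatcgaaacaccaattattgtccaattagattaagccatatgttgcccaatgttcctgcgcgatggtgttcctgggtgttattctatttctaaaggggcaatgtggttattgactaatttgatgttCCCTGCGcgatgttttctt
F55G7.5 (chrX:11937459-11937609): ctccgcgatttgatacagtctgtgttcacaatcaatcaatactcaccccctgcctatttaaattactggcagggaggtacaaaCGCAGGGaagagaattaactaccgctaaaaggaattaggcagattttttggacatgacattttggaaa
mom-1 (chrX:6296485-6296635): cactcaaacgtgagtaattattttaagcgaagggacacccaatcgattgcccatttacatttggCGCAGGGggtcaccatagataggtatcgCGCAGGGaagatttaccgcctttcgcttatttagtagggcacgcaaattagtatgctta
gtr-1 (chrX:806615-806765): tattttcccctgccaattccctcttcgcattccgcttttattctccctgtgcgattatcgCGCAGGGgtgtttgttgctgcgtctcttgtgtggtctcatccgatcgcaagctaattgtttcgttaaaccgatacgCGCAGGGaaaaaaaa
F20B6.9 (chrX:4209192-4209342): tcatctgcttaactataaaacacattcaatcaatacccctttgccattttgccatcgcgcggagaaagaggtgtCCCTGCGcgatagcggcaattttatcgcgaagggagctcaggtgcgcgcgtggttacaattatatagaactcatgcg

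The next lines show the plus strand with 50 bp on each side of the summit at 4 of the 6 strongest X promoter peaks. Capitals mark any of 10 words of 6 bases that were most overrepresented at summits on the autosomes, which are spelled out further on. The strongest X peak of all, at rpl-11.2, held none of them, whereas serp-1.1 held several.
rpl-11.2 (chrX:2242930-2243030): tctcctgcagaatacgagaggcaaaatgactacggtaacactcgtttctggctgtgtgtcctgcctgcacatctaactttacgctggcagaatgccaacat
serp-1.1 (chrX:15841226-15841326): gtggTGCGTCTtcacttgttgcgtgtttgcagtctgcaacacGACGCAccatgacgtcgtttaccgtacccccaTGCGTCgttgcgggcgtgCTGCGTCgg
T14G11.1 (chrX:2688673-2688773): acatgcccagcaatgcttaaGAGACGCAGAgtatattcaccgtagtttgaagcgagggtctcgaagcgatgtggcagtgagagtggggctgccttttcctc
trap-2, ile-2 (chrX:768219-768319): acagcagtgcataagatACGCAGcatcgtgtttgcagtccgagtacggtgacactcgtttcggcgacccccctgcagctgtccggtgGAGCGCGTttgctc

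A summit was assigned to a promoter window when it fell between 1000 bp upstream and 200 bp downstream of the 5′ end of a protein-coding gene. The 25 strongest X peaks comprised 13 in promoter windows, 10 between genes and 2 in introns. The strongest lay 362 bp upstream of rpl-11.2, a gene for the large ribosomal subunit protein uL5, at X:2242693-2243243. Its signal was 14060 in the thresholded list, 6108 in replicate 1 and 7978 in replicate 2, and it ranked 12 among all 6850 peaks. The peak 296 bp upstream of serp-1.1, which encodes a stress-associated protein of the endoplasmic reticulum, had a signal of 11941, with 4897 in replicate 1 and 7066 in replicate 2. Both replicates therefore put these peaks far above every other X peak.

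The peak next in signal lay between glit-1, a neuroligin-like gene, and dnj-14, a co-chaperone gene, with 5699 in the thresholded list, 2516 in replicate 1 and 3212 in replicate 2. T14G11.1, annotated as a membrane-associated protein, followed with 3445, and R08E3.3, which has a CCDC22 domain, with 3286. The shared promoter of trap-2, for a subunit of the translocon-associated complex of the endoplasmic reticulum, and ile-2, for a protein with an L-type lectin domain, had 3005. After these 6 promoters the signal dropped to 1585 at puf-9, a PUF-family RNA-binding protein. hsp-3, which encodes a chaperone of the endoplasmic reticulum of the BiP type, had 1507, with 580 in replicate 1 and 929 in replicate 2. This was the widest step between replicates among these 8 promoters, at 1.60-fold.

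Further strong promoter peaks lay at genes of protein synthesis, energy and membrane traffic. eef-1A.2, for translation elongation factor 1-alpha, had a signal of 1137. vha-15, for a subunit of the vacuolar proton pump, had 1034, and its other X subunit gene among the 45 strongest promoters, vha-12, had 640. F17E5.2, a putative mitochondrial carrier, had 970. immt-1, for a scaffold of mitochondrial cristae, had 838. The ATP synthase genes asg-2 and asb-2 had 780 and 779. dpy-23, for the mu subunit of the clathrin adaptor AP-2, had 848, and epn-1, for the endocytic protein epsin, had 767. The exocyst genes sec-15 and sec-3 had 711 and 616. The sec-15 peak lay in a window shared with the serpin gene C28G1.2, whose 5′ end was nearer, at 37 bp. It was also the strongest X summit within 200 bp of a tRNA gene. uggt-1, which checks the folding of glycoproteins, had 758, and the protein disulfide isomerase gene pdi-6 had 613. Other promoters of this range belonged to fubl-3, with KH domains and a signal of 1383, to nspc-17, of a nematode peptide family, with 1160, and to klp-13, a kinesin, with 943.

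**Figure D1:**
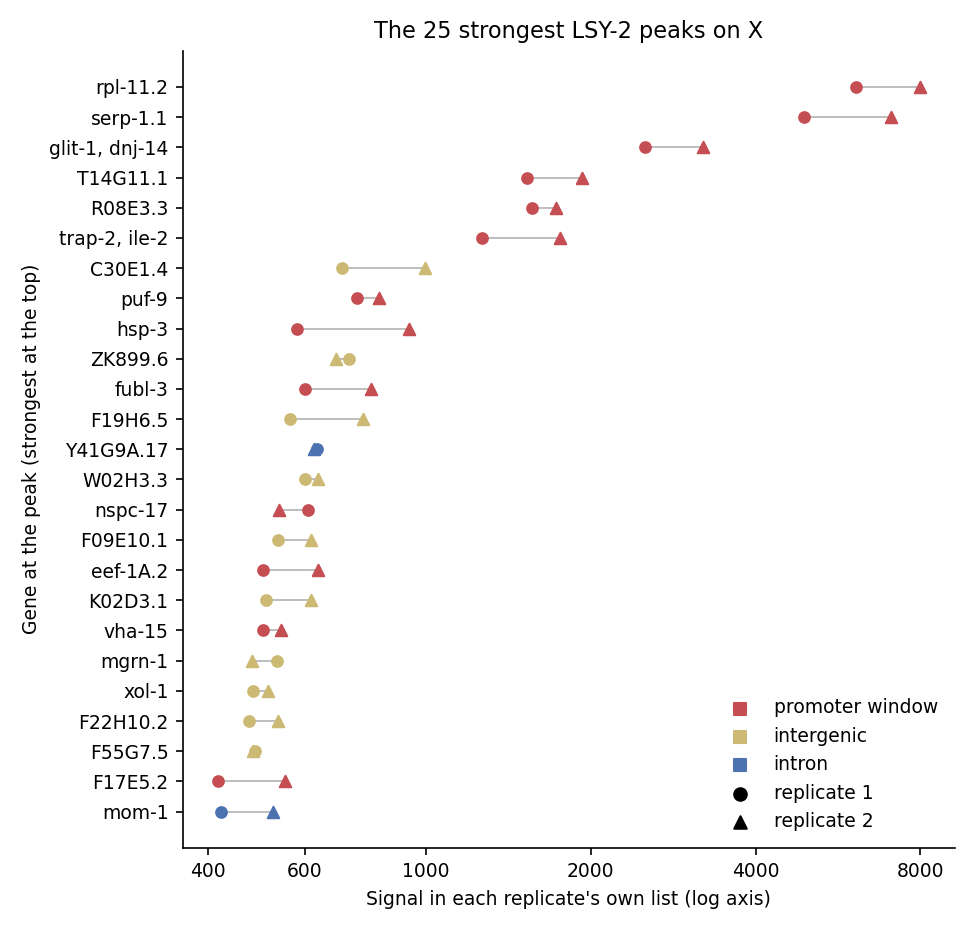
Signal of the 25 strongest X peaks in the list of replicate 1 (circles) and of replicate 2 (triangles) on a log axis, with 1 row for each peak and colour for the place of the summit. rpl-11.2 and serp-1.1 stand apart in both replicates, and replicate 2 is the higher at most peaks, by 1.31-fold at rpl-11.2.

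Across the chromosome, X peaks were weaker than autosomal ones. The median signal was 144 on X, with quartiles of 94.0 and 260, against 175 on the autosomes together. The 5 autosomal medians ran from 161 on chromosome V to 184 on chromosome IV, so that X lay below all of them. The ratio of X to autosomes was 0.82. It was 0.78 for the same peaks in replicate 1, where the medians were 64.7 and 83.1, and 0.85 in replicate 2, where they were 81.2 and 95.5. For any measure that puts X outside the range of the autosomes, a one-sided exact permutation test over 6 chromosomes gives 0.167, the smallest p it can give, so no such difference can pass 0.05.

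The ratio of X to autosomes was lowest in promoter windows, at 0.68. X promoter peaks had a median signal of 175 against 256 on the autosomes, whose 5 medians ran from 209 to 279. Intron peaks were closer, with 116 on X and 133 on the autosomes, whose range was 121 to 143. Intergenic peaks had a median of 142 on X and 138 on the autosomes, and X was within the autosomal range of 126 to 148. Only 22 X peaks, or 2.14%, had a signal of at least 1000, against 370 autosomal peaks, or 6.36%. X held 2 of the 20 strongest peaks of the whole list, 6 of the strongest 200 and 30 of the strongest 500.

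The X share of promoter peaks changed with signal, and that of other peaks much less. The 6850 peaks were split by signal into 10 groups of 685. In the strongest group, with a signal of 672 or more, X supplied 6.38% of the promoter summits and 16.9% of the other summits. In group 5 the shares were 15.2% and 15.7%. In the weakest group they were 13.7% and 20.6%. Outside promoter windows X therefore kept a share between 15.7% and 20.6% in every group. Of the 100 strongest peaks outside promoter windows in the genome, 18 lay on X, although none of the 20 strongest did.

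**Figure D2:**
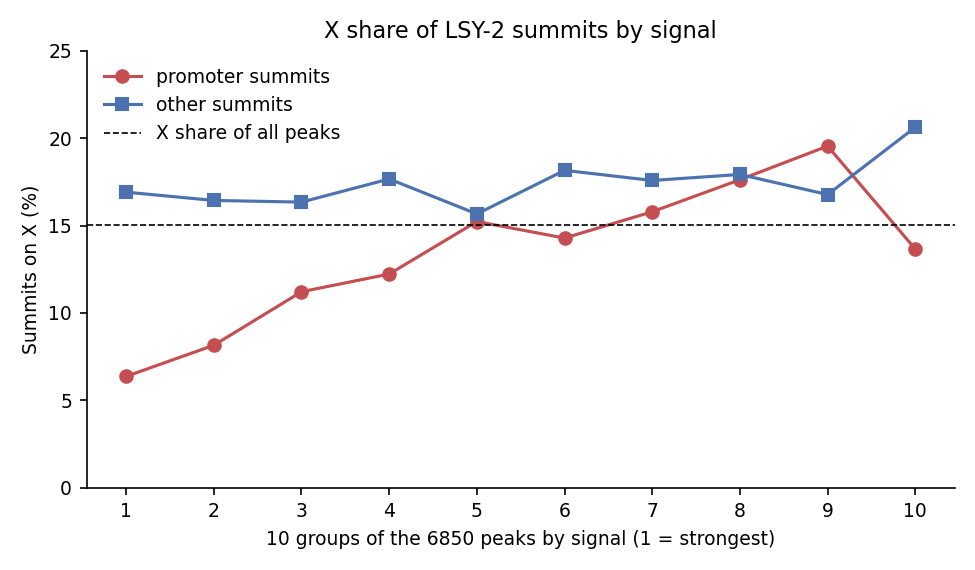
Share of LSY-2 summits that lay on X in each of 10 groups of the 6850 peaks by signal, for summits in promoter windows (circles) and elsewhere (squares), with the X share of all peaks as a dashed line. The promoter share starts at 6.38% in the strongest group and reaches 19.5% in group 9, while the other share stays between 15.7% and 20.6%.

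Replicate 2 gave higher signal values than replicate 1, and by more on X. The part of scaling or depth in the step between replicates was not tested. The median log2 ratio of replicate 2 to replicate 1 was 0.29 on X and 0.18 on the autosomes, whose range was 0.16 to 0.22. The SD of that ratio across peaks was 0.54 on X and 0.53 on the autosomes, or about 1.46-fold and 1.45-fold. Both replicates had a region at 1013 X peaks, or 98.5%. The X share of each replicate's own 6850 strongest regions was 14.6% in replicate 1 and 15.1% in replicate 2. The counts behind these shares, 998 and 1035, lie on either side of the 1028 in the thresholded list.

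In number, X peaks were neither sparse nor dense by the standard of single autosomes. The X share of peaks, 15.0% with a 95% Wilson interval of 14.2% to 15.9%, compared with 17.7% of the genome's length and 13.7% of its protein-coding genes. X had 58.0 peaks per Mb, and the autosomes had from 47.2 on V to 96.8 on III. Per protein-coding gene X had 0.376 peaks and the autosomes 0.338, with a range of 0.198 to 0.505. The stronger 3425 peaks alone gave a ratio of X to autosomes per gene of 0.90 in place of 1.11, so that the side of the autosomes on which X lay depended on the signal. Wilson intervals here cover counting error only.

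The places of X peaks differed from those on the autosomes. In promoter windows lay 410 X summits, 39.9% with an interval of 36.9% to 42.9%, against 50.3% on the autosomes and 47.8% to 52.1% on single autosomes. Between genes lay 356 X summits, 34.6% with an interval of 31.8% to 37.6%, against 23.7% and a range of 22.2% to 26.1%. Introns held 231 X summits, 22.5%, and coding or UTR exons 31, 3.02%. Those shares were within the autosomal ranges of 20.6% to 25.5% and 2.13% to 3.44%. When the 5′ ends of all annotated genes, noncoding ones included, were used, 62.1% of X summits and 63.8% of autosomal summits were in promoter windows and X was within the range.

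X also holds less promoter and more intergenic sequence. Promoter windows covered 17.6% of X and 22.3% of the autosomes, and intergenic sequence covered 32.3% and 23.5%. The share of summits in promoter windows was 2.27 times the share of base pairs on X and 2.26 times on the autosomes. For intergenic sequence the ratios were 1.07 and 1.01. X was within the range of the single autosomes for both ratios, and the part of sequence content in the shares was not tested further.

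**Figure D3:**
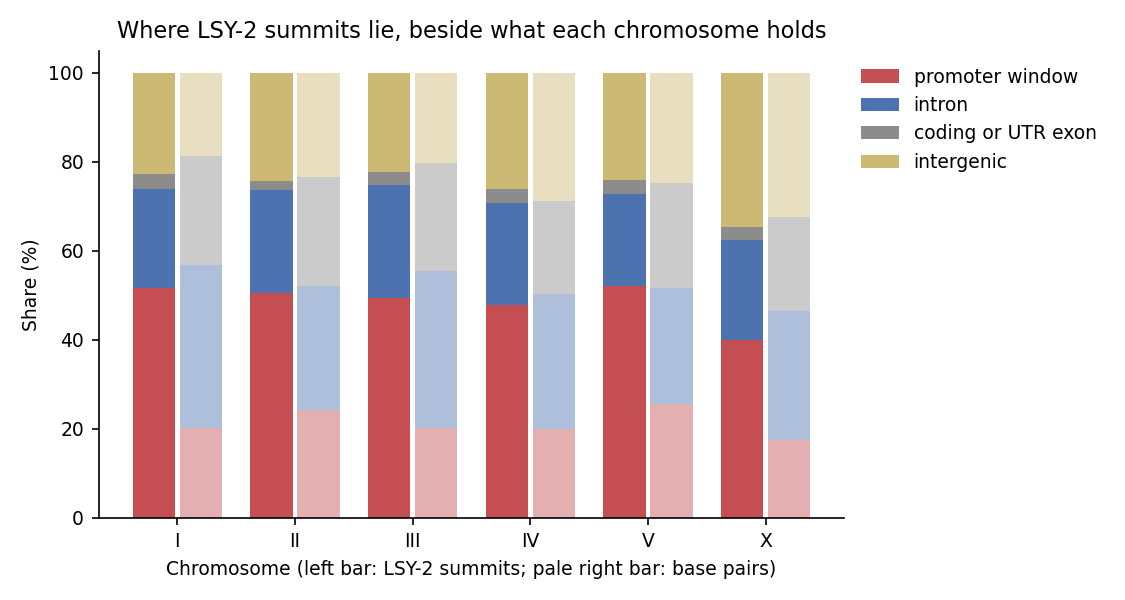
Share of LSY-2 summits (left bars) and of base pairs (pale right bars) in promoter windows, introns, exons and intergenic sequence, in percent, for each chromosome. X has the shortest promoter segment among the left bars, at 39.9%, and the shortest among the right bars, at 17.6%.

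A larger share of X summits than of autosomal ones lay near transfer RNA (tRNA) genes. Counted by gene, a smaller share of X tRNA genes than of autosomal ones had a summit nearby. X carries 276 of the tRNA genes and the autosomes 336. A summit lay within 200 bp of 88 X tRNA genes, or 31.9%, and of 131 autosomal ones, or 39.0%. In all, 82 X summits, 7.98% of them, were near a tRNA gene, against 2.15% of autosomal summits. Of these X summits 42 were intergenic, 31 intronic and 9 in promoter windows, and their median signal was 168. Without them the intergenic share of X was 33.2% and the promoter share 42.4%, against 23.7% and 50.9% on the autosomes.

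X promoter peaks more often served a single gene. A summit was in the windows of more than 1 gene for 40 X promoter summits, 9.76%, and for 33.3% on the autosomes, where single chromosomes ran from 29.3% to 35.8%. Promoter bases that belonged to the windows of more than 1 gene made up 5.05% of promoter sequence on X and 12.0% on the autosomes. X promoter summits also lay farther from the 5′ end, at a median of 248 bp upstream against 180 bp, with an autosomal range of 166 to 193 bp. For a summit in several windows the nearest 5′ end was used, a choice that applied more often on the autosomes. The part of that choice in the difference was not tested. The strongest shared X promoters were those of glit-1 with dnj-14 and of trap-2 with ile-2, named above.

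Of all protein-coding genes 21.1% had a promoter peak. On X these were 435 of 2731 genes, or 15.9%, and on the autosomes 21.9%, with a range from 13.6% on V to 32.9% on III. The median signal at these genes was 180 on X and 298 on the autosomes. With a peak anywhere from 1000 bp upstream to the end of the gene, 588 X genes were counted, or 21.5%, against 26.3% on the autosomes. When a summit was given to the nearest 5′ end alone, 14.5% of X genes and 16.2% of autosomal genes had a promoter peak. The gene counts that follow are to be read against 15.9% for X, and no test was made over the lists.

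Genes of basic cell functions were few on X, and most had a peak. All 5 X members of the list of respiratory chain and ATP synthase genes had a promoter peak. Beside asg-2 and asb-2 they include ucr-2.2, for a core protein of complex III, with 580, and sdha-1, for the flavoprotein of succinate dehydrogenase, with 573. Of 5 translation genes 4 had a promoter peak, and rpl-25.1 had none. ife-2 and ife-4, which encode cap-binding initiation factors, had 338 and 82.8 beside rpl-11.2 and eef-1A.2. The cell cycle list had 4 of 5 members with a peak, among them cdk-4, the kinase that starts division, with 218, and coh-1, a cohesin subunit, with 368. Of 10 genes of splicing and transcription machinery 5 had a promoter peak, with snrp-40.1, of the U5 particle, at 469. On the autosomes 73.0%, 76.9%, 64.2% and 61.8% of the members of these lists, in the same order, had a promoter peak.

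The list of vesicle traffic and the vacuolar proton pump was the largest with high coverage, at 15 of 26 X members or 57.7%, against 51.8% on the autosomes. Its median signal was 281 on X and 373 on the autosomes. rme-4, which acts in the uptake of yolk, had no promoter peak but one inside the gene, with a signal of 752. glo-1 and glo-3, needed for gut granules, had none.

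The lists of neuronal signalling genes, drawn up by gene name, had many members on X, and few of these had a peak. Of 37 listed neuropeptide and insulin-like genes only ins-39 had a promoter peak, with a signal of 620. flp-11 and flp-12 were among the 36 with none. Outside that list, B0410.3 and C44C1.6, annotated as neuropeptide-like proteins, had promoter peaks of 266 and 73.3. Of 73 receptors of transmitters and neuropeptides 2 had one. They were the glutamate receptor genes glr-6, which shares its promoter peak with asg-2, and glr-8, with 172. None of 40 genes of ion channels and gap junctions had a promoter peak, and 4 had a summit inside, among them the innexin gene unc-9 with 247. None of 34 chemoreceptor genes had a peak, odr-10 included. On the autosomes the shares with a promoter peak were also low, at 5.61%, 2.61%, 9.42% and 1.58% in the same order. Synaptic genes gave 5 of 17 on X, 29.4%, against 38.7% on the autosomes. The strongest was dnj-14, with 5699 from the peak it shares with glit-1, whose 5′ end was nearer. Others were kin-29, a kinase of salt-inducible type, with 440, and syd-2, for the active zone protein liprin-alpha, with 288. For axon guidance, adhesion and basement membrane the count was 5 of 41, against 14.1% on the autosomes. hst-2, which sulfates heparan, had 826, and a summit of 159 lay inside the netrin gene unc-6. In the cilium list 1 of 16 had a promoter peak, ift-81 with 203, against 20.3% on the autosomes.

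The list drawn up for ASE left-right asymmetry, in which LSY-2 is known to act, gave 2 of 9 on X, against 11.8% on the autosomes. The list includes several gcy genes, and whether each member acts in the ASE neurons was not tested. sox-2, for a SoxB-type transcription factor, had a promoter peak of 269, and the receptor guanylate cyclase gene gcy-11 one of 88.3. ceh-36, lim-6, gcy-9, gcy-31, gcy-36, sek-1 and lsy-2 itself had none. The lsy-2 gene lies on X, at X:2089704-2093256. The authors' pooled list, which includes background, had no region in its promoter window or its body. That was also so for sdc-2, sex-1 and xol-1. The thresholded summit nearest to lsy-2 was 46591 bp away.

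Lists of regulators of transcription and developmental timing differed widely. Of 27 nuclear hormone receptor genes on X 10 had a promoter peak, 37.0%, and 15 had a peak anywhere. On the autosomes 15.4% of 247 had a promoter peak. nhr-1 led with 579, of which 243 in replicate 1 and 333 in replicate 2, followed by nhr-48 with 461 and nhr-32 with 252. daf-12, the steroid receptor of the dauer decision, had a summit of 303 inside the gene. Homeobox genes gave 2 of 29 with a promoter peak, ceh-39 and ceh-93, against 25.3% on the autosomes. The other developmental factors gave 12 of 50, against 26.8% on the autosomes. Among them were mdl-1, a Mad-like repressor, at 554, cebp-1 at 463, and atf-6 and atf-4, of stress responses, at 348 and 335.

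Heterochronic genes, which time the larval stages, had promoter peaks at 6 of 10 X members and a peak anywhere at 9. The autosomal shares were 52.0% and 76.0%. puf-9 and ain-1, a partner of the microRNA Argonautes, had 1585 and 919. lin-14, which sets the first larval stage, had a promoter peak of 259, with 123 in replicate 1 and 145 in replicate 2. It also had 7 summits inside, with a highest signal of 241. hbl-1, which acts in the second stage, had 116, kin-20 had 480 inside the gene, and daf-9 had no peak. F49E2.5 also had 7 internal summits, H18N23.2 had 6, and scd-1, cab-1 and mbl-1 had 5 each. ldb-1, for a LIM-domain-binding protein, vab-3, the worm's Pax6, and unk-1, ZK470.2 and F46H5.3 had 4 each. Such genes are long, and lin-14 spans 20.3 kb. In all, 207 X genes had a summit between their ends, which may also lie in a promoter window, and 19 of them had at least 3.

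The remaining lists stood on both sides of the X background. Muscle genes gave 8 of 25, or 32.0%, with act-4 at 349 and the troponin T genes tnt-2 and mup-2 at 223 and 213. Insulin, dauer and nutrient genes gave 5 of 19, with akt-2 at 421, and 6 more had a peak only inside, such as aak-2, an AMP-activated kinase, with 681. Wnt, Notch, EGF and TGF-beta genes gave 6 of 19, with lin-15B at 318 and sem-5, a Grb2-type adaptor, at 266. lin-15B is also counted in the chromatin list that follows. Chromatin and small RNA genes gave 7 of 33, with the bromodomain gene bet-2 at 663 and alg-1 with an internal summit alone. Collagen and cuticle genes gave 4 of 54, or 7.41%, lipid and yolk genes 3 of 36, detoxification and transport genes 3 of 41, and C-type lectin and F-box genes 2 of 20. On the autosomes the shares with a promoter peak were 40.3%, 38.6%, 22.4%, 36.8%, 9.60%, 21.2%, 9.01% and 5.90% in the same order. The 4 X genes of the collagen and cuticle list were pdi-6 and pdi-2, protein disulfide isomerase genes with 613 and 458, col-185 with 183 and ptr-24 with 167. Among these 4 only col-185 is annotated as a collagen. The proteasome list has no member on X.

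The X signal elements and dosage compensation genes on X, 6 in all, had 2 promoter peaks, against 7 of 16 listed genes on the autosomes. ceh-39, an X signal element, had 206, with 83.5 in replicate 1 and 125 in replicate 2. sdc-1, of the dosage compensation complex, had 181, with 75.1 in replicate 1 and 97.5 in replicate 2. fox-1, sex-1, sdc-2 and xol-1 had none, although a strong peak lay 4873 bp upstream of xol-1, the switch gene of sex determination.

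That peak, with a signal of 1012, was one of those that held the recruitment motif core. Within 100 bp of the summit on each side, CGCAGGG on either strand was found at 10 of the 30 strongest X peaks outside promoter windows, or 33.3% with an interval of 19.2% to 51.2%. The cut at 30 was not planned in advance. The word was found at 2 of the next 70, at 14 of the other 518, and at 9 of the 410 X promoter summits, or 2.20%. Counted in other ways, it was at 4.21% of all 618 X peaks outside promoter windows, at 5.06% of intergenic X peaks, at 3.40% of all X peaks, and at 1 of the 30 strongest X promoter peaks. On the autosomes 1 of 136 peaks outside promoter windows of at least the same signal held it, and 30 of all 2892, or 1.04%. Of all windows of that length on X 0.327% held the word, and of those of the autosomes 0.313%, so that the word itself was about equally common. A match is a description of the letters and does not show that the complex was bound.

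Each replicate taken alone gave a like count. Ranked by each replicate alone, 12 of the strongest 30 held the word in replicate 1 and 10 in replicate 2. Y41G9A.17, an intronic summit, had 1262 in the thresholded list, 632 in replicate 1 and 625 in replicate 2. An intergenic summit 4010 bp from the 5′ end of W02H3.3 had 1237, with 600 and 635. The xol-1 peak had 484 and 514. Close below it in signal, the intergenic summit nearest F22H10.2 had 1012, with 474 and 537, and that nearest F55G7.5 had 971, with 486 and 483. The peak in an intron of mom-1, a gene of Wnt secretion, had 421 and 526, and that near gtr-1, a G protein-coupled receptor gene, 462 and 497. That near F20B6.9 had 458 and 417. The signal in replicate 2 was a median of 1.06 times that in replicate 1 at the 10 peaks with the word, and 1.26 times at the 20 without it. As printed above, W02H3.3, xol-1, mom-1 and gtr-1 carry 2 copies each. Of the 10 summits 7 were intergenic, 2 intronic and 1 exonic, and the nearest 5′ ends were 1014 to 15199 bp away. The strongest peaks outside promoters that lacked the word were those near C30E1.4, with 1712, ZK899.6, with 1402, and F19H6.5, with 1341. F09E10.1 followed with 1154, K02D3.1 with 1129 and mgrn-1, for a ubiquitin ligase, with 1015.

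Seen from the word, 301 matches lay on X, or 17.0 per Mb, and 40 of them, 13.3%, had a summit within 100 bp. On the autosomes 4.97% of 1329 matches did. In the pooled list 54 of the 301 X matches had one, 17.9%, against 138 of the 1329 autosomal matches, 10.4%, so that the ratio of X to the autosomes was lower there. Among all X peaks outside promoter windows the 26 with the word had a median signal of 270 and the 592 without it 127. Summit windows were also richer in GC than their flanks, with 45.5% against 34.5% on X, and the part of base composition in these shares was not tested.

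**Figure D4:**
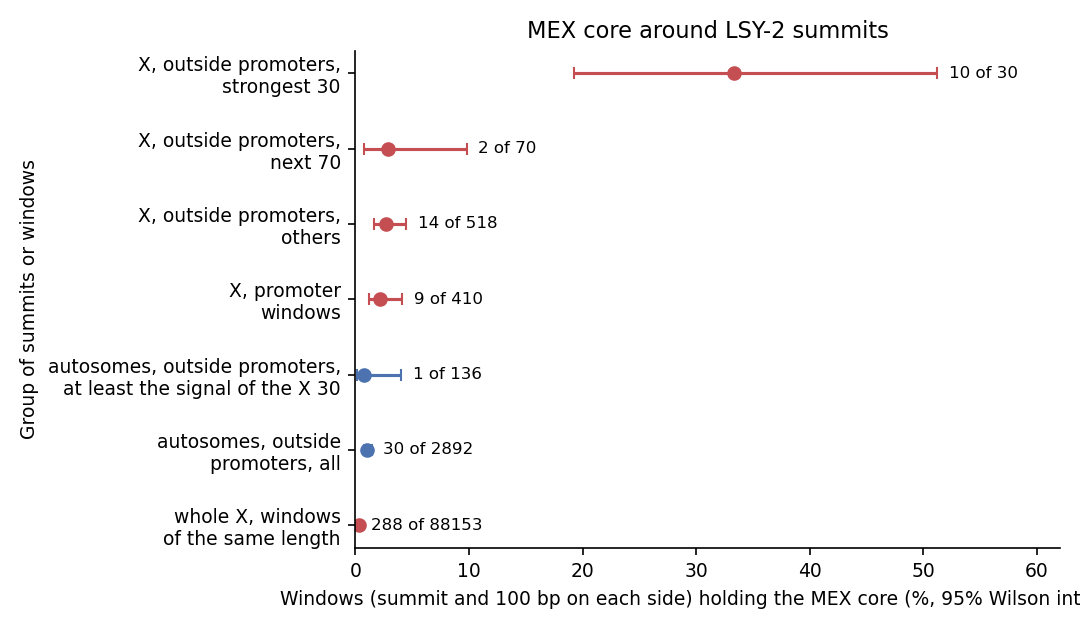
Share of windows, each a summit with 100 bp on either side, that held the MEX core on either strand, with 95% Wilson intervals and counts, for groups of LSY-2 summits on X (red) and on the autosomes (blue) and for all windows of X. The strongest 30 X peaks outside promoters stand at 33.3%, and every other group drawn is below 3%.

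The 10 marked words were chosen on the autosomes by the ratio of their share in windows of 50 bp on each side of the summit to that in flanks centred 300 bp away, and X was not used in the choice. Each was counted with its reverse complement, and several overlap each other and the MEX core. Of X windows ACGCAG was in 10.3%, GACGCA in 9.63%, ACGCGC in 8.37%, GCGCGC in 4.28% and AGACGC in 9.63%. The word AGCGCG was in 6.61%, GAGCGC in 8.75%, CGTCTC in 12.7%, CGCAGA in 9.73% and CACGCG in 6.03%. All 10 were more frequent at X summits than in X flanks, by 3.44-fold to 6-fold, and the autosomal ratios were 5.38-fold to 8.70-fold. Because the words were chosen for high autosomal ratios, the autosomal side is favoured. Whether X was less enriched cannot be read from these ranges. ACGCAG was in 1.90% of X flanks and in 2.78% of windows of the same length centred 200 bp upstream of all X genes. It was in 16.0% of autosomal summit windows. GAGCGC was in 16.1% of X promoter windows and 3.88% of other X windows. The repeat GAGAGA was in 27.7% of X windows and 6.23% of flanks, close to the 28.2% and 6.11% of the autosomes. Split by place, X and the autosomes differed in opposite directions. GAGAGA was in 32.0% of X promoter windows against 21.7% of autosomal ones, and in 24.9% of other X windows against 34.7%. The GATA-factor word TGATAA was in 7.49% of X windows and 8.95% of flanks.

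X peaks were less concentrated in the middle of the chromosome than those of any autosome. The middle of 3 equal parts of X held 343 X peaks, 33.4% with an interval of 30.6% to 36.3%, against 44.4% on the autosomes and 40.5% to 48.9% on single autosomes. Gene 5′ ends were at 35.7% there on X and 38.1% on the autosomes. From left to right, 5 equal parts of X held 168, 201, 203, 227 and 229 peaks. Peaks per gene ran from 0.329 in the first part to 0.475 in the last, and the promoter share was 47.6% in the first and 35.4% in the last. In bins of 200 kb X had between 2 and 24 peaks with a median of 11.5, and no bin was empty. The variance of the bin counts over their mean was 1.86 on X and from 2.40 to 4.31 on the autosomes.

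**Figure D5:**
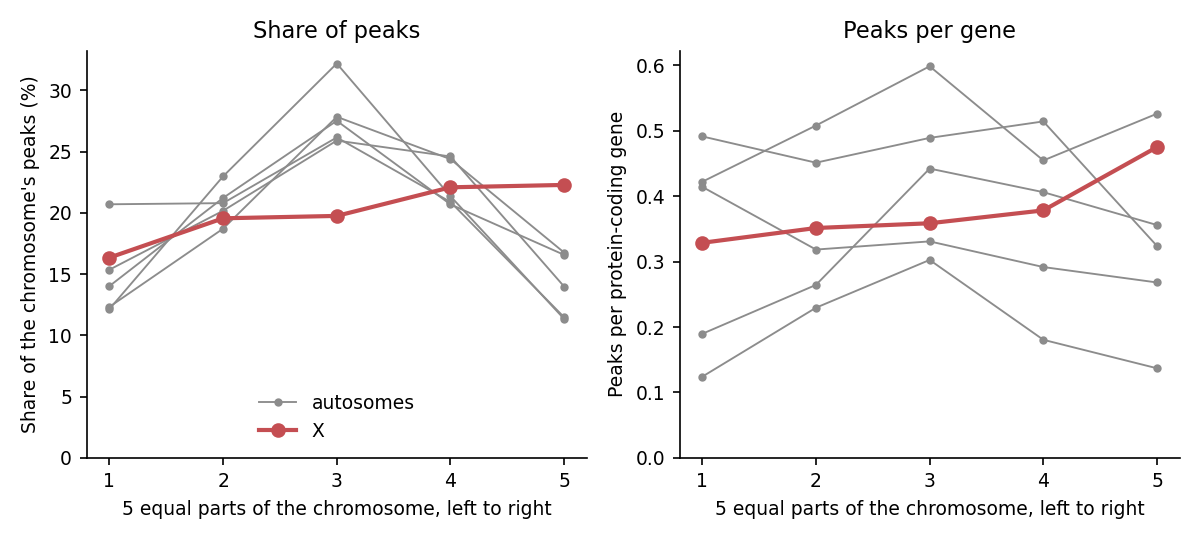
Share of a chromosome's LSY-2 peaks (left) and peaks per protein-coding gene (right) in 5 equal parts from left to right, for X (red) and the autosomes (grey). X climbs from 16.3% to 22.3% of its peaks with no hump in the middle, where the autosomes hold between 25.9% and 32.2%.

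The densest bin, X:15600001-15800000, held 24 peaks, 12 of them in promoter windows. Its genes include nipi-3, of innate immunity, with 705, nhr-48 with 461, and lin-15B with 318. The bin X:13200001-13400000 had 21 peaks, with F02C12.3 the strongest promoter at 635, and X:15200001-15400000 had as many, only 2 of them in promoter windows. At the other end, the longest stretch without a summit ran from X:1128647 to 1302462, or 174 kb. The summit at its left edge is that of the snx-1 promoter, with a signal of 163. The 5′ ends of 19 genes lie between the edges, among them those of the neuropeptide receptor gene npr-11 and the dopamine receptor gene dop-4. The longest such stretches on the autosomes were 106 to 573 kb. The median distance between neighbouring summits was 7.78 kb on X. The weakest X peaks, near F13E6.2, hil-3 and T08D2.8, had signals of 68.9, 68.8 and 68.8, at the edge of the thresholded list.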

How the data were processed

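LSY-2 ChIP-seq was measured in 2 biological replicates of 1 group. The authors deposited lists of regions with a signal value and a summit offset per region, for each replicate, for both pooled (peaks and background) and as an optimal list thresholded for reproducibility (IDR), in ce10 and ce11, per the labels and the deposited file notes. The pooled and replicate lists were made against a control, per the file notes. Each of the aligner, the peak caller, the scaling of signal and the depth is not given in the sources used here. Signals of X and of the autosomes were compared within 1 list. Ratios of replicate 2 to replicate 1 compare values across the lists of the replicates, and the part of scaling or depth in them was not tested. The thresholded ce11 list was used throughout, and replicate signals are those of each replicate's own region at the summit. Summits are 1-based.

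Genes came from Ensembl release 115 (WBcel235, which is ce11), with 19973 protein-coding genes; sequences and product names came from RefSeq of the same assembly. Classes were given in the order promoter window, coding or UTR exon, intron, intergenic. The class step was run on simulated data: 2400 summits placed over 6 chromosomes were all given back in their class (100%). They were drawn from the same windows and gene features that define the classes. The run therefore checks the code and not whether the classes are right. Python 3.11.15, pandas 2.3.3, NumPy 2.4.6 and SciPy 1.17.1 were used.

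The part of the peaks described, the 27 gene lists and the words were chosen with earlier results of these data known. Named genes are those at the 25 strongest X peaks, the 10 strongest outside promoters, the genes with most internal summits, up to 4 bound and 2 unbound members per list, lsy-2, and genes of the densest bins and the longest gap. Other strong promoters among the first 45, B0410.3 and C44C1.6, and the peaks near F20B6.9 and T27A8.7 and in pks-1, were named after their values were seen. Peaks of 1 list are not replicates, so no p-value was computed over peaks or genes. X was set beside the range of the autosomes.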

Additional observations from a re-analysis of the deposited data

How the results depend on the processing

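No paired analysis was possible because the series has 1 group. Of 90 values recomputed under alternatives, 63 stayed within the 95% interval of the reported value. With each replicate's own 6850 strongest regions, the X share of peaks ran from 14.6% to 15.1%, the promoter share from 38.9% to 41.0%, the intergenic share from 33.3% to 35.2%, the intron share from 22.5% to 22.9%, the exon share from 2.80% to 3.41%, genes with a promoter peak from 15.2% to 16.5%, the median signal ratio from 0.81 to 0.85, the ratio of peaks per Mb from 0.79 to 0.83 and per gene from 1.08 to 1.12, the middle of 3 equal parts from 33.5% to 33.5%, and the MEX core share from 33.3% to 40.0%. The stronger 3425 peaks gave an X share of 12.5%, ratios of 0.67 per Mb and 0.90 per gene (reversed), 49.4% promoter, 16.8% intron and 1.63% exon summits, and 8.50% of genes. The pooled list with its background gave a median signal ratio of 1.06 (reversed), 23.0% promoter, 32.2% intron and 8.78% exon summits and 32.1% of genes. Windows of 500 and 100 bp gave 11.8% of genes, 29.1% promoter and 44.3% intergenic summits, and windows of 2000 and 500 bp gave 21.1%, 52.4% and 24.8%. The nearest 5′ end alone gave 14.5% of genes. The 5′ ends of all annotated genes gave 62.1% promoter, 14.1% intron and 21.0% intergenic summits, and those of all transcripts, an alternative added after seeing the data, gave 17.7% of genes, 46.2% promoter and 17.0% intron summits. The middle 3 of 5 parts held 61.4% of X peaks and 70.9% of autosomal ones. Among the strongest 15 peaks outside promoters 8, or 53.3%, held the MEX core, and among the strongest 60 12 did, both numbers chosen after seeing the data. The causes were not tested. X stayed above every autosome in intergenic share and below every autosome in the share of the middle of 3 parts under each alternative run. In promoter share it stayed below under each but the 5′ ends of all annotated genes. Peaks per Mb and the middle share were not run in ce10, for which no genome was used here. Signal scaling and depth being unknown, weak peaks cannot be given a counting error.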

Other observations

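Among short noncoding genes other than tRNA genes, the share with a summit within 200 bp was lower on X for some kinds and higher for others. No summit lay within 200 bp of any of 74 X microRNA genes, against 17 of 187 on the autosomes, and none within 200 bp of 178 X pseudogenes, against 36 of 1950. Of 33 snoRNA genes on X 4 had one, against 94 of 313. For piRNA genes the count was 3 of 162 on X, 1.85%, against 0.579% on the autosomes, and for snRNA genes 1 of 3, against 18 of 126. Farther upstream, a summit with a signal of 808, of which 319 in replicate 1 and 482 in replicate 2, lay 308 bp before mir-54, and mir-55 and mir-56 follow in the same cluster. It lies in an intron of F09A5.3, so that it cannot be given to the microRNAs or to that gene. mir-47 had a summit of 242 at 675 bp upstream, and mir-73 one of 76.5 at 415 bp.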
